A study of Mus musculus with 8 samples.

Results

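The genes described here are 9 genes used to tell apart the pyramidal neurons of the hippocampal fields CA1, CA2 and CA3: Wfs1 and Fibcd1 for CA1, Rgs14, Amigo2, Pcp4, Cacng5 and Map3k15 for CA2, and Bok and Iyd for CA3. They were taken by name, as every non-control probe whose gene symbol is in that list, with no cutoff on a measured value. The list itself was chosen with earlier results of these data known. Each has 1 probe on the array, so the set is 9 of 55681 probes and 9 of 20145 gene symbols. All 9 were tested.

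Hippocampal RNA was taken from C57BL/6J males aged 11 weeks and measured on 8 Agilent oligonucleotide arrays, 1 sample per array. The SED group stayed sedentary and ate placebo food, the ME group ran mildly on a treadmill and ate the same food, the AX group stayed sedentary and ate astaxanthin, a red carotenoid, and the AX+ME group both ran and ate it. All groups share strain, sex and age. Astaxanthin came as a powder at 0.5% of the food with an astaxanthin content of 2%. There are 2 samples per group, 1 in the dye Cy3 (replicate 1) and 1 in Cy5 (replicate 2), and how 8 mice per group became 2 samples is not stated, so the p-values may measure technical spread only.

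The pyramidal layer of the hippocampus runs from CA3, which receives the mossy fibres of the dentate gyrus and excites itself through recurrent collaterals, through the small field CA2 to CA1, the main output of the circuit. CA2 cells resist long-term potentiation at their CA3 inputs and are known for their part in social memory. In RNA of whole hippocampus these genes follow both how many pyramidal cells of a field were sampled and how much of the transcript each cell holds, and fewer cells and less RNA per cell cannot be told apart. None of them is confined to the hippocampus: Pcp4, for example, is also abundant in the striatum and in cerebellar Purkinje cells.

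Levels are given as the signal of the sample's dye divided by that array's 75th percentile. This value is a probe's own brightness, so it is compared between samples and not between genes. Of the 9 genes, 8 were well above background on all 8 arrays. Iyd was so on 4 arrays, and on neither array of AX+ME. The other genes of the fields served to check the tissue label. All 7 other CA1 genes, all 8 other CA2 genes, all 7 other CA3 genes and all 7 dentate granule cell genes listed were well above background on 8 arrays. Genes of neighbouring tissue were measured as well, among them 8 of choroid plexus and 8 of striatal neurons.

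No gene of the 9 passed the limma test at an adjusted p of 0.05 in any of 8 comparisons. The count was 0 of 9 for ME against SED, where 2.88% of all 27188 genes and transcripts tested were called. It was also 0 of 9 for AX against SED, with a background of 3.38%, and for AX+ME against SED, with a background of 6.73%. The combined treatment against either single one (ME or AX) also gave 0 of 9, with a background of 0%, and so did the remaining 3 comparisons. For the interaction the background was 0.463%, for exercise averaged over diets 0.710% and for astaxanthin averaged over activity 0.765%. At an unadjusted p under 0.05, 1, 1 and 3 of the 9 passed against SED in ME, AX and AX+ME, where 24.3%, 26.4% and 32.0% of all genes did. The median log2 difference of the 9 from SED was 0.0018 in ME, -0.11 in AX and -0.051 in AX+ME, beside -0.051, -0.042 and -0.035 over all genes. A fit of only the 17507 genes with probes from array column 70 on held 5 of the 9 and called 0 of them. There 0%, 0% and 0.0171% of all genes were called against SED in ME, AX and AX+ME. Why probes were split by column is described below.

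**Figure D1:**
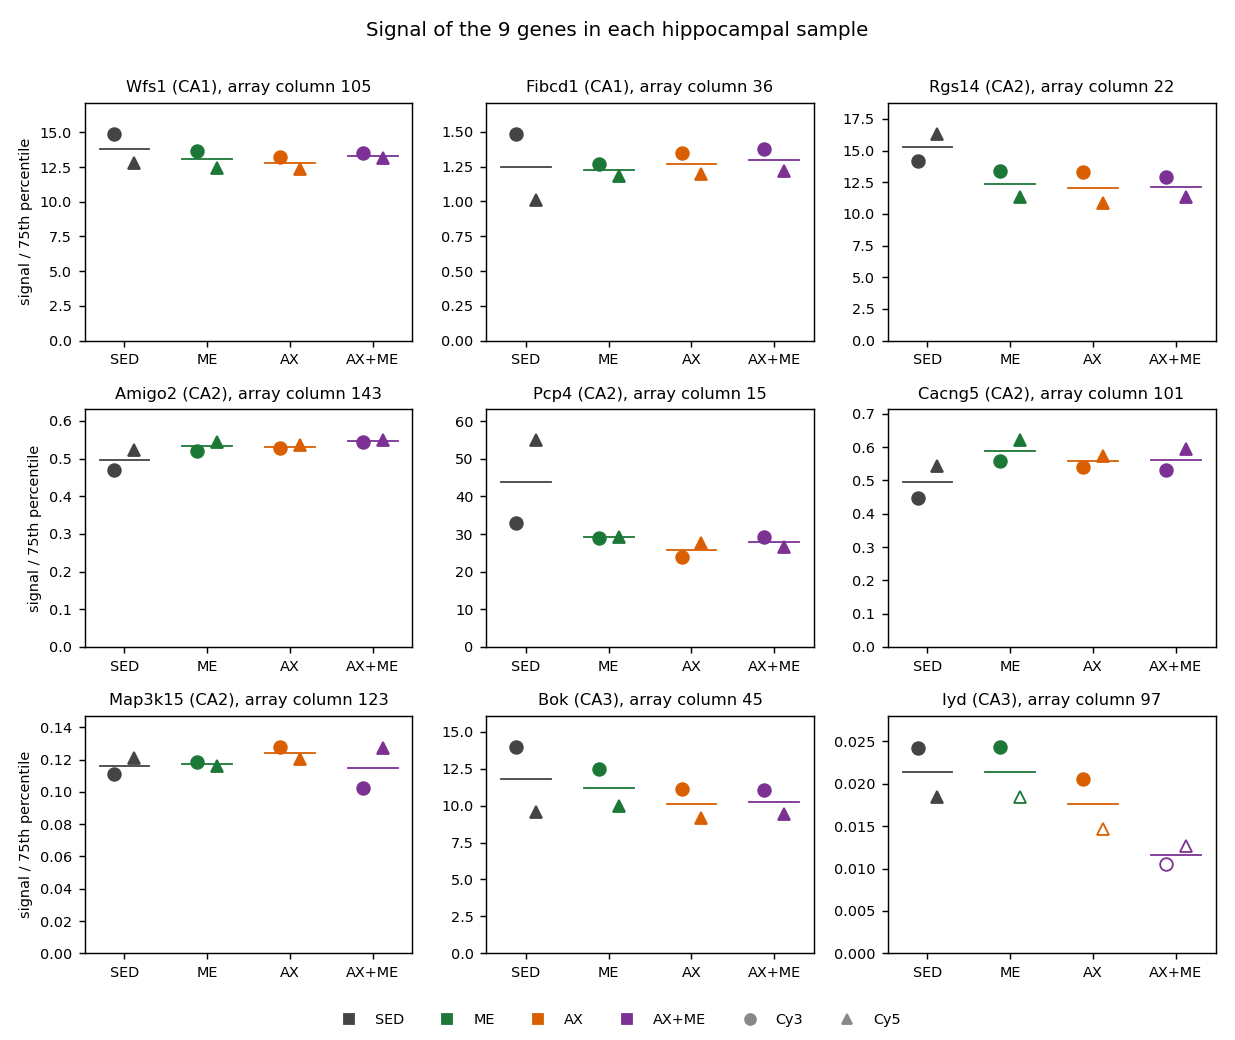
Signal of each of the 9 genes divided by the array's 75th percentile (y axis, linear, from 0) in the 4 groups (x axis); circles are Cy3 samples, triangles Cy5 samples, open symbols arrays on which the probe was not well above background, and bars the means of 2 samples. Pcp4 reaches 54.9 in the Cy5 sample of SED against 24.0 to 32.9 in the other 7 samples, and Iyd reads 0.0105 and 0.0127 in the AX+ME samples, where it was not well above background.

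Promoters of 7 of the 9 genes, from 250 bases before to 50 after the start, were matched in RefSeq (GRCm38.p6), 8 sequences in all. Those of Pcp4 and Iyd are shown because these 2 genes had the largest differences from SED, described next. They lie at chr16:96467356-96467655 and chr10:3540024-3540323, both on the + strand, and the capitals mark CANNTG, the E-box bound by factors such as the NeuroD family, or TATAAA on either strand.
Pcp4: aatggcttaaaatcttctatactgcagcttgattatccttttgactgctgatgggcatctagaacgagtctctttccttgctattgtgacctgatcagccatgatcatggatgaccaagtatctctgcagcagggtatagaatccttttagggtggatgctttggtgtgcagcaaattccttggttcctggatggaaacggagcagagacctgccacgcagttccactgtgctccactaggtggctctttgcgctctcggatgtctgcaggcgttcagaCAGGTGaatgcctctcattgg
Iyd: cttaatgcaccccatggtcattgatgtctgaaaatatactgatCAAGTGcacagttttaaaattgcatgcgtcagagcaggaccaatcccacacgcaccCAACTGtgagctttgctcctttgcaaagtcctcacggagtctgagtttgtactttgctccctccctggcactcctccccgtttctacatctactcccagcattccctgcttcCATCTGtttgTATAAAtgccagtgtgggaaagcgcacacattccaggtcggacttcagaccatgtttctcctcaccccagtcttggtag
Both hold 6 CG pairs in 300 bases, close to the median of 7 over 32851 promoters, against 46 in Fibcd1 and in Amigo2. CANNTG was found in 5 of the 8 sequences and in 72.3% of all promoters, TATAAA in 1 of the 8 (Iyd) and in 13.6%, and the GC box GGGCGG, on either strand, in 5 of the 8 and in 35.7%. These are letter matches and no evidence of binding.

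Pcp4, which encodes a small protein that binds calmodulin and is a standard stain of CA2, gave the widest spread between groups among the 8 genes measured above background throughout. Its level in the Cy3 samples was 32.9 in SED, 28.9 in ME, 24.0 in AX and 29.3 in AX+ME. In the Cy5 samples it was 54.9 in SED, 29.3 in ME, 27.6 in AX and 26.6 in AX+ME. SED was highest in both dyes, far more so in Cy5, and the other groups overlapped. On the log2 scale Pcp4 differed from SED by -0.54 in ME (SE 0.22, adjusted p = 0.235), by -0.72 in AX (adjusted p = 0.141) and by -0.61 in AX+ME (adjusted p = 0.153). None passed. Without SED replicate 1, which leaves the Cy5 sample to stand for SED, the values were -0.90, -1.08 and -0.96 and passed (adjusted p = 0.0285, 0.0210 and 0.0247), where 18.0%, 18.5% and 19.8% of all genes did. That fit takes the spread of the lone SED sample from the other groups. Without SED replicate 2 they were -0.19, -0.37 and -0.25 and did not pass. The spot was saturated on 1 array, ME replicate 2.

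Rgs14, a scaffold of G protein and MAP kinase signalling that limits plasticity in CA2 neurons, had the same order of groups. Its Cy3 levels were 14.2 in SED, 13.4 in ME, 13.3 in AX and 12.9 in AX+ME, and its Cy5 levels were 16.3, 11.3, 10.8 and 11.3 in the same order. Again SED was highest in both dyes and the other groups lay close together. The log2 differences from SED were -0.30 in ME, -0.34 in AX and -0.33 in AX+ME (SE 0.14, adjusted p = 0.266, 0.211 and 0.185). Without SED replicate 1 they were -0.53, -0.56 and -0.55 and passed (adjusted p = 0.0218, 0.0195 and 0.0194), beside the same 18.0%, 18.5% and 19.8% of all genes and with the same assumption on the lone sample. Without SED replicate 2 they were -0.084, -0.12 and -0.11 and did not pass.

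How the scanner software made these values was measured next, since the probes of Pcp4 and Rgs14 lie near an edge of the array, at columns 15 and 22. After subtracting background the software fits a smooth surface over the array and divides each spot by it, a step called multiplicative detrending. The ratio of the processed to the background-subtracted signal gives the factor applied to each spot. For Pcp4 the factor was 1.43 in the Cy3 and 2.07 in the Cy5 sample of SED, the latter being the sample that stood for SED in the calls without replicate 1, and between 1.04 and 1.12 on the other 6 arrays. For Rgs14 it was 1.18 and 1.53 in SED, and 0.993 to 1.01 elsewhere. Background-subtracted signals of Pcp4 in the Cy5 samples were 54099 in SED, 63570 in ME, 61555 in AX and 52874 in AX+ME. The processed signals were 112216, 68020, 63891 and 55341. Before detrending the SED spot was dimmer than those of ME and AX, and after it SED was the brightest of the 4.

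The same split ran through all 9 genes. The 4 with probes below column 70 (Pcp4, Rgs14, Fibcd1 and Bok) were multiplied by 1.14 to 2.07 on the SED arrays and by 0.943 to 1.12 on the others. The 5 with probes from column 97 on (Iyd, Cacng5, Wfs1, Map3k15 and Amigo2) were multiplied by 0.768 to 0.970 on the SED arrays and by 0.939 to 1.02 on the others. Over all spots below column 70 with a background-subtracted signal above 1000, the median factor was 1.06 and 1.25 on the SED arrays and 0.984 to 1.01 on the other 6. Rows of the slide hold the dyes and its columns the groups, so a place on the slide and a group cannot be told apart.

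**Figure D2:**
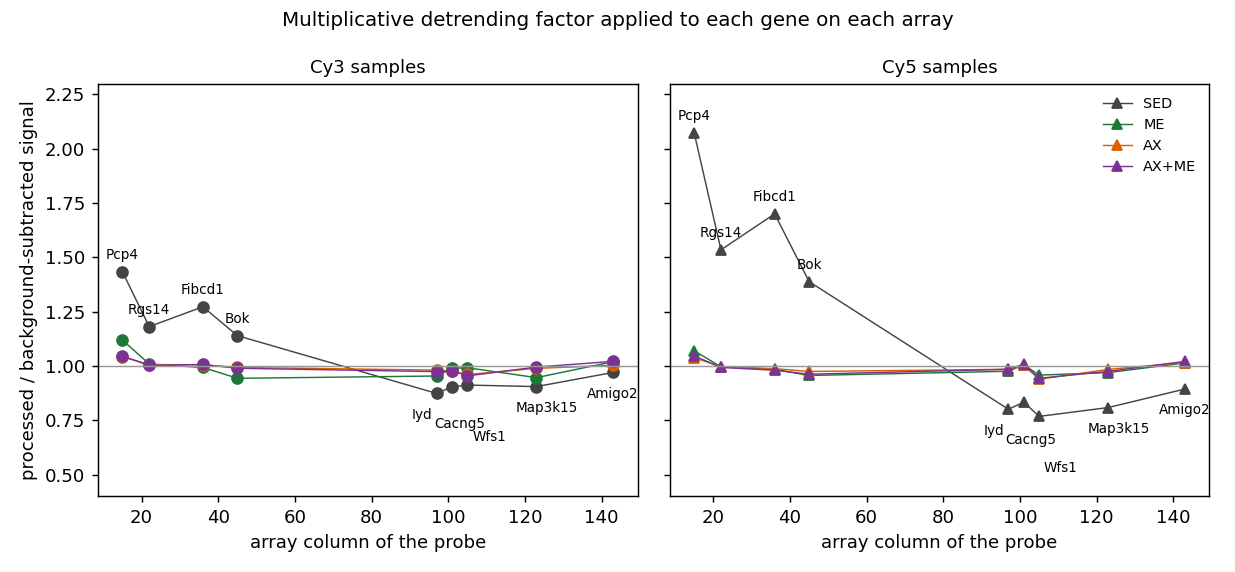
Factor by which multiplicative detrending changed each of the 9 genes (y axis, processed over background-subtracted signal) against the array column of its probe (x axis), for the 4 Cy3 samples on the left and the 4 Cy5 samples on the right; gene names stand at the SED points. On the SED arrays the 4 genes below column 70 have factors of 1.14 to 2.07 and the other 5 have 0.768 to 0.970, while on the other 6 arrays all lie between 0.939 and 1.12.

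The limma fit was therefore repeated on the background-subtracted signals, each divided by its own 75th percentile, an alternative chosen after these factors were seen. Pcp4 in Cy3 then read 23.1 (SED), 25.9 (ME), 23.0 (AX) and 27.9 (AX+ME). In Cy5 it read 27.3, 27.5, 26.6 and 25.4 in that order, so that SED lay inside the range of the other groups. Its log2 differences from SED became 0.087, -0.025 and 0.083 (SE 0.12; adjusted p = 0.583, 0.886 and 0.612). Rgs14 read 12.1 in Cy3 and 11.0 in Cy5 in SED, against 12.8 to 13.3 and 10.9 to 11.4 in the other groups, and its differences became 0.096, 0.057 and 0.067 (SE 0.076; adjusted p = 0.373, 0.598 and 0.532). The lower Pcp4 and Rgs14 of the treated groups were present in the detrended values and not in the values before that step. Which of the 2 signals is nearer the RNA was not tested. In the fit before detrending the median of all genes was -0.15, -0.12 and -0.11 against SED, and 4.95%, 8.89% and 15.6% of all genes were called. After detrending, SED lay above the other groups of its dye by a log2 gap of 0.27 (Cy3) and 0.98 (Cy5) for Pcp4. The median gap of its 24 brighter neighbouring spots was -0.16 and 0.23. For Rgs14 the gap was 0.10 and 0.55, and for its 27 neighbours 0.36 and 0.61.

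**Figure D3:**
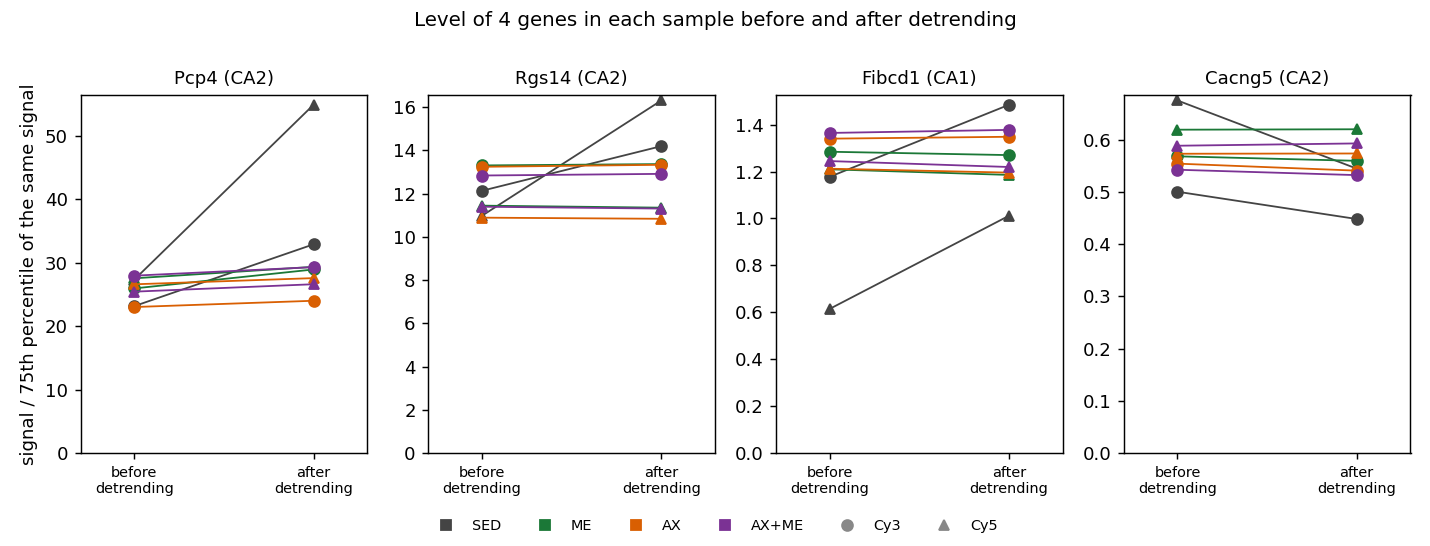
Level of Pcp4, Rgs14, Fibcd1 and Cacng5 in each of the 8 samples, as the signal over the 75th percentile of the same signal (y axis, linear, from 0), before detrending on the left and after it on the right of each panel; colours are groups, circles Cy3 and triangles Cy5. The lines of ME, AX and AX+ME are nearly level, while the Cy5 SED sample goes from 27.3 to 54.9 for Pcp4, from 11.0 to 16.3 for Rgs14, from 0.615 to 1.01 for Fibcd1 and from 0.675 to 0.545 for Cacng5.

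Cacng5, a subunit that goes with AMPA-type glutamate receptors, was lowest in SED in both dyes after detrending. Its Cy3 levels were 0.448 in SED, 0.560 in ME, 0.541 in AX and 0.532 in AX+ME, and its Cy5 levels 0.545, 0.620, 0.574 and 0.593. The log2 difference was 0.25 in ME (SE 0.067, 95% interval 0.076 to 0.43, adjusted p = 0.121), 0.17 in AX (adjusted p = 0.197) and 0.19 in AX+ME (adjusted p = 0.147), higher in 2 of 2 dyes each time. Before detrending the Cy5 sample of SED was the highest of its dye at 0.675 and the Cy3 sample the lowest of its dye at 0.500. The differences were then 0.029, -0.044 and -0.041 (SE 0.12).

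Amigo2, a leucine-rich repeat adhesion molecule of the cell surface, was also lowest in SED. Its levels in SED were 0.469 in Cy3 and 0.524 in Cy5, and in the other groups 0.521 to 0.544 and 0.537 to 0.548. SED lay below the other groups in both dyes. The differences from SED were 0.10 in ME, 0.10 in AX and 0.14 in AX+ME (SE 0.061; adjusted p = 0.369, 0.349 and 0.198), and -0.048, -0.044 and -0.025 before detrending (SE 0.10). Without SED replicate 1 they were 0.040, 0.039 and 0.077, and without SED replicate 2 they were 0.17, 0.17 and 0.20, none of which passed.

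Map3k15, a kinase at the head of a MAP kinase cascade, lay between 0.103 and 0.128 in all samples with no group apart. Its widest pairwise difference was AX+ME against AX at -0.12 (95% interval -0.42 to 0.18), made of -0.32 in Cy3 and 0.078 in Cy5.

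Of the CA1 genes, Wfs1, which encodes wolframin of the endoplasmic reticulum and marks the dorsal CA1 pyramidal layer, had the narrowest spread of the 9 within a dye after detrending. Its Cy3 levels were 14.9 in SED, 13.6 in ME, 13.2 in AX and 13.5 in AX+ME, and its Cy5 levels 12.8, 12.5, 12.4 and 13.1. That spread, the range over the 8 samples once each dye's mean was taken off, was 0.17 on the log2 scale, and 87.9% of all genes had a wider one. For Amigo2 it was 0.21. Its differences from SED were -0.081 in ME (95% interval -0.25 to 0.089, adjusted p = 0.490) and -0.11 in AX (95% interval -0.28 to 0.061, adjusted p = 0.341). Before detrending SED stood higher, at 16.5 and 17.2 against 13.1 to 14.1, and the differences were -0.33 in ME, -0.32 in AX and -0.26 in AX+ME (SE 0.077; adjusted p = 0.0777, 0.0632 and 0.0747), lower in both dyes. With normexp background correction in place of the software's, which also leaves out detrending, they passed for Wfs1 at -0.32, -0.33 and -0.27 (adjusted p = 0.0499, 0.0361 and 0.0457), where 7.25%, 15.7% and 21.5% of all genes did.

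Fibcd1, an acetyl-group-binding membrane receptor and a marker of dorsal CA1, had its highest Cy3 and its lowest Cy5 level in SED. The Cy3 levels were 1.48 in SED and 1.27 to 1.38 in the other groups, and the Cy5 levels 1.01 in SED and 1.19 to 1.22 in the others. The differences from SED therefore had opposite signs in the dyes, -0.11 and 0.27 for AX+ME, with a mean of 0.081 (95% interval -0.26 to 0.42, adjusted p = 0.695). Before detrending Fibcd1 was lowest in SED in both dyes, at 1.18 and 0.615, and its differences were 0.55, 0.58 and 0.62 (SE 0.24; adjusted p = 0.172, 0.153 and 0.126).

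Of the CA3 genes, Bok, a pro-apoptotic relative of BCL2, had Cy3 levels of 14.0 in SED, 12.5 in ME, 11.1 in AX and 11.1 in AX+ME, and Cy5 levels of 9.61, 9.99, 9.18 and 9.43. Both astaxanthin groups lay below both placebo groups in each dye. The difference for astaxanthin averaged over activity was -0.16 (SE 0.065, 95% interval -0.34 to 0.010, adjusted p = 0.219), and it was -0.20 for AX against SED and -0.18 for AX+ME against SED (adjusted p = 0.254 and 0.252). Before detrending these last 2 values were 0.13 and 0.15, with the dyes opposed. Without SED replicate 1 the values for AX and AX+ME were -0.066 and -0.049, and without SED replicate 2 they were -0.33 and -0.31 (adjusted p = 0.0745 and 0.0664).

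Iyd, iodotyrosine deiodinase, which recovers iodide in the thyroid, was the dimmest of the probes, with processed signals of 20.6 to 42.8 units. Its Cy3 levels were 0.0243 in SED, 0.0244 in ME, 0.0205 in AX and 0.0105 in AX+ME, and its Cy5 levels 0.0185, 0.0185, 0.0147 and 0.0127. Only the Cy3 arrays of SED, ME and AX and the Cy5 array of SED were well above background, so the remaining 4 values, all 3 treated Cy5 samples among them, have no order. In Cy3, AX+ME lay below the 3 measured groups. The log2 difference of AX+ME was -0.88 from SED (SE 0.21, 95% interval -1.43 to -0.32, adjusted p = 0.0755), -0.88 from ME (adjusted p = 0.478) and -0.59 from AX (adjusted p = 0.818), each taking the dim values as they stand. Since the probe was well above background on neither AX+ME array, the size of the drop there was not measured. A bound was taken from the lowest level flagged well above background on each AX+ME array, 0.0132 in Cy3 and 0.0211 in Cy5. It gave 1.27-fold from SED over both dyes, but in Cy5 it lies above the SED level of 0.0185 and shows no drop. The flag is no fixed cutoff either: Iyd had it at 37.7 units in SED replicate 2 and lacked it at 42.8 in ME replicate 2. No bound is given against ME or AX, each measured on 1 of 2 arrays. It passed the filter on dim probes only through SED, where both arrays measured it, so its drop from SED is not independent of that filter. The probe lies at column 97, and the difference from SED was -1.14 before detrending (adjusted p = 0.0346), the only one of the 9 genes called in that fit. It also passed with quantile normalization, at -1.12 (adjusted p = 0.0341), where 5.64% of all genes did, and with normexp, at -0.50 (adjusted p = 0.0455).

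**Figure D4:**
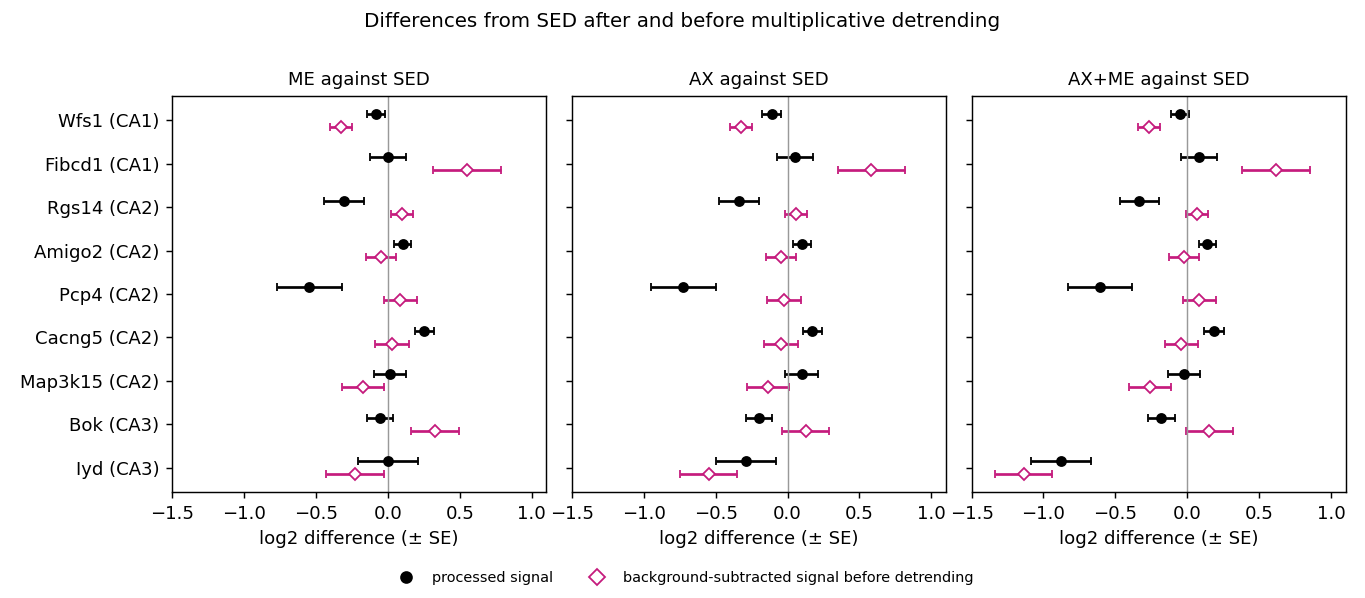
Log2 difference of each of the 9 genes from SED (x axis, with SE) in ME, AX and AX+ME, from the limma fit over 8 samples on processed signals (filled circles) and on background-subtracted signals before detrending (open diamonds). Pcp4 and Rgs14 move from below 0 to near 0, Fibcd1 moves from near 0 to 0.55 to 0.62, and Iyd in AX+ME is -0.88 and -1.14.

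Other genes of the same fields were read in the same way. Of 22 such genes (7 of CA1, 8 of CA2 and 7 of CA3), 0 were called for ME and for AX against SED and 1 for AX+ME against SED. The shares over all genes were 2.88%, 3.38% and 6.73%. The 1 called was Cpne4, a calcium-dependent membrane-binding protein of CA3, at -0.32 (SE 0.050, adjusted p = 0.0428), and -0.43 before detrending (adjusted p = 0.0429). Its values are from the brightest of 3 probes, at column 61. In the fit of only probes from column 70 on, another of its probes was used. There 0 of the 7 other CA3 genes were called for AX+ME against SED, beside 0.0171% of all genes. The medians of the 7 other CA1 genes were -0.0061, -0.14 and -0.16, those of the 8 other CA2 genes 0.053, 0.0083 and 0.027, and those of the 7 other CA3 genes -0.013, -0.043 and -0.13. In AX+ME, 5 of the 7 CA1, 2 of the 8 CA2 and 5 of the 7 CA3 genes were lower in both dyes, where 39.2% of all genes were. The 7 other CA1 genes summed to 50.3 to 51.7 in SED and 49.4 to 50.0 in ME. In AX they summed to 46.4 to 47.3 and in AX+ME to 45.8 to 45.9. Mpped1 was the largest term of these sums, at 23.7 to 29.1 over the samples. It differed from SED by -0.22 in AX and -0.21 in AX+ME (limma adjusted p = 0.107 and 0.0876). The sum without Mpped1 was not taken, so the sums do not stand for CA1 genes in general. For 6 general forebrain excitatory neuron genes the medians were 0.18, 0.11 and 0.10. Before detrending 1, 3 and 5 of the 22 were called, where 4.95%, 8.89% and 15.6% of all genes were. In AX+ME these were Spink8 (-0.36), Ptpn5 (-0.40) and Cpne4, all lower, and Plcxd3 (0.90) and Npy2r, both higher. In AX they were Ptpn5 (-0.45), Plcxd3 (0.85) and Npy2r, and in ME Npy2r, a neuropeptide Y receptor with a probe at column 16. Npy2r was 0.97, 0.91 and 0.88 above SED after detrending and did not pass (adjusted p = 0.219, 0.221 and 0.197), and was 1.55, 1.56 and 1.53 above SED before it (adjusted p = 0.0335, 0.0317 and 0.0288). These values are from the brighter of its 2 probes, whose spots on the SED arrays were multiplied by 1.39 and 2.04, nearly as those of Pcp4.

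Markers of tissue next to the hippocampus also differed between these samples. The summed level of 8 striatal genes was 27.4 to 36.7 in SED, 22.6 to 23.5 in ME, 22.6 to 23.3 in AX and 24.7 to 25.0 in AX+ME. In each treated group 1 of 8 was called lower, Drd1, where 1.00%, 1.29% and 3.12% of all genes were. Much of the gap in the sums was Penk, the enkephalin precursor, whose probe shares column 15 with that of Pcp4. Penk read 11.6 and 19.9 in SED and 7.16 to 9.26 elsewhere, and its factor was 1.17 and 1.71 in SED and 1.09 to 1.18 elsewhere. The sums of the 7 genes without Penk were 15.7 to 16.8 in SED, 14.0 to 15.4 in ME, 14.6 to 16.1 in AX and 15.5 to 16.1 in AX+ME. Over the 6 striatal genes with a probe from column 70 on, the median difference from SED was -0.18 in ME, -0.019 in AX and -0.0092 in AX+ME. Before detrending Penk was -0.60, -0.67 and -0.40 against SED (adjusted p = 0.0290, 0.0223 and 0.0436). Pcp4 is also a striatal gene, and the part of that tissue in its level was not tested. Of 8 choroid plexus genes, 5 were called lower in ME, 0 in AX and 7 in AX+ME, beside the same 1.00%, 1.29% and 3.12% of all genes. Of 5 interneuron and 4 astrocyte genes, 1 in each list was called higher in each treated group. Over all genes 1.87%, 2.09% and 3.61% were called higher. Of 9 thalamus and hypothalamus genes, 1 was called higher and 1 lower in each group. In a fit of only probes from column 70 on, no gene of these lists was called against SED. Of all genes in that fit, 0%, 0% and 0.0171% were called. The medians of the 7 choroid plexus genes in it were -0.44 in ME, -0.12 in AX and -0.54 in AX+ME. The part of these tissues and cells in the values of the 9 genes was not tested.

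By root mean square distance over the 8 samples of dye-centred log2 levels, among 9135 genes with probes from column 70 on, the profile nearest to Pcp4 was that of H1f5 (0.083, against 0.32 for the profile itself) and the nearest to Rgs14 that of Rabep1 (0.029 against 0.17). For Iyd it was Gm5176 (0.16 against 0.39). The second nearest were Ankrd34c, Crnkl1 and Rnf122. For Wfs1 they were Arhgap45 and Ap3b2, for Fibcd1 Arsa and Shcbp1l, for Bok Mepe and Fastkd5, for Amigo2 Mcrs1 and Dnajc16, for Cacng5 Apold1 and Erich5, and for Map3k15 C130026L21Rik and Rflnb. With so many candidates and 8 samples these are descriptions only.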

How the data were processed

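Slides were read with Agilent Feature Extraction (version 11.0.1.1 in the submitters' processing notes), whose deposited files give an intensity for each spot. Per the file headers, the authors' processed intensity is background-subtracted and multiplicatively detrended within each array, and it is not scaled between arrays. Probes were designed on the mm9 mouse build, per the same headers. The deposited value table held the same signals to within 0.5, on a linear scale, neither centred nor logged.

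The own-dye signal was scaled to the 75th percentile of the array's 59305 non-control spots, floored at 0.001 and put on a log2 scale. This log2 scale is not the authors' deposited one. Non-uniform spots were left out and spots of 1 probe averaged. A probe entered where 1 group or more had both arrays well above background (37441 probes), and a gene with several probes was represented by its brightest, leaving 27188 genes and transcripts. All 8 samples entered 1 limma 3.58.1 fit (R 4.3.3) with terms for group and dye, 3 residual degrees of freedom and two-sided p-values adjusted by Benjamini-Hochberg over all genes. The fit was tested on simulated data. The same dye pairs the samples across groups, which is why dye is in the fit. Between 63.2% and 76.2% of spots were well above background per array, and 919 to 1474 were saturated. The number of arrays limits the precision.

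The genes and lists were chosen with earlier results of these data known. All 9 genes were named, and other lists by their counts and the genes past a threshold. Genes singled out after their values were seen were named too: Mpped1, and Npy2r, Penk and the others called before detrending. The 2 nearest profiles of each gene were also named. The 22 alternatives covered normalization, background, detrending, filters, probes, saturation, dye, samples and array position. The normexp, detrending and neighbour alternatives were chosen or altered after seeing the data, since the files hold no mean signal for normexp.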

Additional observations from a re-analysis of the deposited data

Results flagged for a closer look

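For 3 genes, the 2 samples of a contrast read one way in one setting and the other way in the other, though for Iyd these directions do not hold. The interaction, which tests that difference, did not pass for any of them. Wfs1 was -0.081 with exercise on the placebo diet and 0.059 with exercise on the astaxanthin diet, an interaction of 0.14 on the log2 scale (SE 0.091, limma adjusted p = 0.546). Iyd was 0.0033 with exercise on placebo, a value near 0, and -0.59 with exercise on astaxanthin, an interaction of -0.59 (SE 0.29, adjusted p = 0.440). Its probe was well above background on neither AX+ME array and on 1 array each of ME and AX. Cacng5 was 0.17 with astaxanthin in sedentary mice and -0.068 in exercised mice, an interaction of -0.24 (SE 0.095, adjusted p = 0.354).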

How the results depend on the processing

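Over 22 alternatives, 0 of the 9 genes were called for AX+ME against ME and against AX in every one. Against SED, the count for AX+ME became 1 with quantile normalization (Iyd, beside 5.64% of all genes), 1 on signals before detrending (Iyd, beside 15.6%) and 2 with normexp (Iyd and Wfs1, beside 21.5%). For ME and for AX it became 1 with normexp (Wfs1, beside 7.25% and 15.7%). With 1 sample left out in turn, the counts ran from 0 to 2 for each of the 3 treated groups against SED, for the interaction and for astaxanthin averaged over activity, and from 0 to 1 for exercise averaged over diets. The highest was always without SED replicate 1 (Pcp4 and Rgs14; for exercise Rgs14), where 18.0%, 18.5% and 19.8% of all genes were called for ME, AX and AX+ME, 10.7% for the interaction, 12.9% for astaxanthin and 11.3% for exercise. Without the dye term, that is with no replicate block, 0 of 9 were called in each comparison.

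Of the 27 differences from SED, 16 turned sign before detrending and 16 with normexp. The share of all genes that turned sign was not counted, so these turns are not particular to the 9. The median of all genes also moved down, to -0.15, -0.12 and -0.11 before detrending in ME, AX and AX+ME. With normexp it was -0.14, -0.14 and -0.13. Before detrending, Bok was 0.33, 0.13 and 0.15 in ME, AX and AX+ME, Rgs14 0.096, 0.057 and 0.067 and Amigo2 -0.048, -0.044 and -0.025. Pcp4 was 0.087 in ME and 0.083 in AX+ME, Cacng5 -0.044 in AX and -0.041 in AX+ME, Map3k15 -0.17 in ME and -0.14 in AX, and Iyd -0.23 in ME. With normexp, Bok was 0.36, 0.14 and 0.17, Rgs14 0.16, 0.11 and 0.095 and Cacng5 -0.00023, -0.10 and -0.066. Pcp4 was then 0.061 in ME and 0.059 in AX+ME, Amigo2 -0.024 in AX and -0.025 in AX+ME, Map3k15 -0.18 in ME and -0.14 in AX, and Iyd -0.23 in ME. The interactions of Iyd and Cacng5 became 0.10 and 0.038. With quantile normalization Wfs1 in AX+ME was 0.037 and Iyd in ME -0.0086. With the median of neighbouring spots subtracted, Rgs14 was 0.18, 0.14 and 0.17 and Map3k15 in AX+ME 0.080. These were the only 4 of the 27 that turned there, so Pcp4 stayed below SED. With 1 sample left out, Fibcd1 ran from -0.20 to 0.20 in ME, -0.15 to 0.25 in AX and -0.12 to 0.28 in AX+ME. Map3k15 ran from -0.056 to 0.090, -0.013 to 0.21 and -0.18 to 0.13, and from -0.27 to 0.033 in AX+ME against AX. In ME, Bok ran from -0.19 to 0.078 and Iyd from -0.096 to 0.10, and in AX+ME Wfs1 ran from -0.12 to 0.014. Before detrending and in normexp the factors on the SED arrays are left out by construction, and the cause of the turns under the other alternatives was not tested. Iyd kept its sign in AX+ME against SED, from -1.23 to -0.50, over 21 alternatives, the filter on all 8 arrays leaving it out. Iyd passed the filter on dim probes only through SED, and its AX+ME values were not well above background. The kept sign and the calls of Iyd are therefore no independent support for a drop. Dim signal limits Iyd. The differences from SED of all 9 genes changed when detrending was left out, those from column 97 on included.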
